A study of Mus musculus with 7 samples.

Results

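The bone morphogenetic protein (BMP) ligands Bmp2, Bmp4 and Bmp7, the receptors Bmpr1a and Bmpr2, the inhibitor Smad6 and the targets Id1, Id2, Id3 and Id4 were followed through fetal and perinatal development of the mouse gonad. They were taken by gene symbol, and these 10 genes are 10 of the 31053 in the count tables. Each symbol has 1 entry. The question was which cells carry the RNA of the ligands and which carry the RNA of the targets at each age.

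BMP ligands are secreted dimers that bind a complex of type I and type II receptors on the receiving cell. The active complex phosphorylates Smad1, Smad5 and Smad9, which enter the nucleus with Smad4 and raise the transcription of the Id genes and of the inhibitor Smad6. Id proteins lack a DNA-binding region and hold E proteins such as Tcf3, Tcf4 and Tcf12 away from DNA. BMP signals are known for the formation of primordial germ cells in the early embryo, before a gonad exists, and in the ovary for roles in the entry of germ cells into meiosis and in the growth of follicles.

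Cells of untreated wild-type C57BL/6J mice were captured on the 10x Genomics platform, with v2 chemistry as the labels and the study state. Each age is 1 library made from several gonads, as the study states, whose cells cannot be told apart by gonad. The 7 libraries are gonads at E11.5, whose sex the labels do not give, and ovaries before birth (E12.5, E14.5, E16.5 and E18.5) and after it (P1 and P5). Since an age has 1 library, a difference between 2 ages has no replicate check, and library and age cannot be told apart. The time in trypsin also rose with age, from 20 min at E11.5 and E12.5 to 40 min at E14.5 and E16.5, 60 min at E18.5 and 80 min at P1 and P5, so that it cannot be told apart from age either.

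The cells with at least 200 genes numbered 3848 to 11060 per library, at a median of 6349 to 11060 unique molecular identifiers (UMIs) per cell. The E16.5 library shared 0 to 3 cell barcodes with any other library, whereas the other 6 shared 20 to 131 with each other. The labels give v2 chemistry for E16.5 too, and whether it was made with the same barcode set was not tested. Calls of members that changed when E16.5 was left out are therefore given beside them.

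Cells were put into 5 classes by genes that are not among the 10 studied. Germ cells held at least 1 UMI of both Dazl and Ddx4, epithelium of Upk3b, pregranulosa of both Wnt6 and Kitl, stroma of both Col1a1 and Col1a2, and endothelium of Cdh5. Cells that met several definitions, 4.99 to 13.8% of a library, were left out, and 26.6 to 54.3% met none. This removed a larger part of epithelium and endothelium. Of the cells with a Upk3b UMI, 584 of 973 stayed in epithelium at E11.5, 83 of 830 at E16.5 and 55 of 249 at P1. Of those with a Cdh5 UMI, 87 of 104 stayed in endothelium at E11.5, 184 of 415 at E16.5 and 47 of 143 at P5. The classes carried their own markers: the summed level of 6 further markers in its own class had a median over libraries of 3595 CPM (UMIs per 1000000 UMIs of the class) for germ cells, 1410 for epithelium, 1781 for pregranulosa, 4039 for stroma and 3172 for endothelium. The epithelial markers did not separate epithelium from pregranulosa, where their sum had a median of 1250 CPM. Epithelium in turn held pregranulosa markers at a median of 584 CPM and stroma markers at 544. Its own markers fell to 475 CPM in the lowest library. Mural markers were at 505 to 1259 CPM in stroma and at most 132 in the other classes. Mesonephric tubule markers were at 96.4 to 314 CPM in pregranulosa, of whose cells 1.498 to 12.8% held a Pax8 UMI. The E16.5 epithelium stood apart in depth, with a median of 2135 UMIs per cell, and held erythroid markers at 100592 CPM. Erythroid RNA was not confined to that library. The haemoglobin gene Hba-a1 was in epithelium at 17058 CPM at E16.5, 14987 at P5 and 308 to 7400 in the other libraries. The part of these other cells in the results was not tested. E11.5 held 9 germ cells, which are shown by their values and entered no test. The study considers its Wnt6-positive cells at E11.5 likely bipotential precursors, able to form Sertoli or pregranulosa cells. At E11.5 the class named pregranulosa is therefore to be read as such precursors. The stroma class rests on Col1a1 and Col1a2 at every age, and its 6 markers summed to 1215 CPM in the lowest library. Whether its cells at E11.5 belong to the ovarian stroma of later ages was not tested.

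Levels were taken per library from the pooled UMIs of all cells in a class, in CPM, and are listed in the order of the ages. They count 3' ends, so levels of different genes are not compared. Intervals are 95% exact Poisson intervals and cover counting error only. Free RNA in the droplets was read from erythroid cells (set by erythroid markers, Alas2 among them, and in no other class). Their mean level over the 7 libraries was 0.673 CPM for Bmp2, 0.209 for Bmp4, 0.398 for Bmp7, 2.25 for Bmpr1a, 2.82 for Bmpr2, 0.851 for Smad6, 14.9 for Id1, 13.1 for Id2, 23.5 for Id3 and 1.09 for Id4. In these cells 6 erythroid markers alone held 122656 to 743055 CPM per library. This lowers the CPM of all other genes there, so the levels read low as a measure of free RNA. For the tests, UMIs were summed per library and class, and edgeR compared each class with the mean of the other 4 on the log2 scale, with library as a block. Bmpr2 overlaps another annotated gene on its own strand, where its counts are uncertain. Bmp4, Bmpr1a and Id4 overlap genes on the opposite strand only. A gene was called at a Benjamini-Hochberg adjusted p under 0.05 over all genes tested and a log2 fold of at least 1.

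Among the ligands, Bmp2 was highest in pregranulosa up to E18.5 and in endothelium at P1 and P5. Bmp2 lies on chromosome 2, 133552159 to 133562885 on the plus strand (ENSMUSG00000027358, GRCm38). Its level in pregranulosa was 49.0, 75.7, 86.7, 68.8, 119.0, 43.1 and 21.0 CPM from E11.5 to P5. Pregranulosa, which at E11.5 stands for the precursors named above, was the highest of the 5 classes in the 5 libraries before birth. In endothelium, Bmp2 was at 10.1, 32.4, 25.3, 36.1, 16.7, 136 (111 to 166) and 66.8 (47.3 to 91.7) CPM from E11.5 to P5, and it was the highest class at both ages after birth. The endothelial levels rest on 10 to 102 Bmp2 UMIs per library. The summed level of 6 pregranulosa markers in endothelium was 381 CPM at P5 and 266 at P1, against 69.3 to 173 in the other libraries. The part of pregranulosa RNA in the endothelial Bmp2 levels was not tested. The P1 endothelium also held markers of other cell types, with a summed level of 6 epithelial markers of 273 CPM, against 38.6 to 133 in the other libraries, and of 6 mesonephric tubule markers of 178 CPM, against 3.35 to 16.8. Its Krt19 was at 71.6 CPM, against 1.12 to 2.13. The 6 of its 53 cells with a Krt19 or Krt7 UMI held 1 of its 99 Bmp2 UMIs, and without them Bmp2 was at 149.9 CPM (122 to 183), a comparison chosen after seeing the data. It leaves out only cells in which a keratin UMI was seen, so it cannot measure RNA of other cells in the rest. The part of such RNA in the P1 level was not tested. In epithelium Bmp2 ranged from 1.84 CPM at P1, in 55 cells, to 55.0 at E14.5, in 183 cells.

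Stroma and germ cells held little Bmp2. The stromal level lay between 2.19 and 7.06 CPM and the germ cell level between 0.229 and 5.32 CPM from E12.5 on, against 0 to 1.998 in erythroid cells. Against the other classes, Bmp2 was higher in pregranulosa (log2 fold 2.49 ± 0.36 SE, edgeR adjusted p = 1.8e-06) and in endothelium (2.03 ± 0.44, adjusted p = 0.00047, and 1.27 without P1, adjusted p = 0.011). It was lower in stroma (log2 fold -1.82 ± 0.46, adjusted p = 0.0024) and in germ cells (-3.31 ± 0.57, adjusted p = 7.6e-06). Against epithelium alone, the log2 fold of Bmp2 in pregranulosa was 1.498 ± 0.53 at an adjusted p of 0.0501, just outside the rule.

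Bmp4 had its highest level in different classes at different ages. It lies on chromosome 14, 46383520 to 46390669 on the minus strand (ENSMUSG00000021835). Its level in stroma was 85.0 CPM (81.7 to 88.5) at E11.5 and then 17.5, 9.99, 3.03, 8.27, 7.29 and 11.2 CPM from E12.5 to P5. Epithelium went from 53.5 CPM at E11.5 to 21.8 at E12.5 and 12.2 at E14.5, and stood at 2.20 to 11.7 thereafter. In pregranulosa, Bmp4 was at 9.40, 3.87, 3.66, 1.61, 6.61, 8.47 and 49.3 (45.2 to 53.6) CPM from E11.5 to P5. E11.5 thus stood above the other libraries in stroma and epithelium, and P5 in pregranulosa. The highest class was stroma at E11.5 and E18.5, epithelium at E12.5 and E14.5, endothelium at E16.5 and pregranulosa at P1 and P5. The rank at E14.5 was close, with 12.2 CPM in 183 epithelial cells against 9.99 in stroma. So were those at E18.5, with 8.27 CPM in stroma against 6.61 in pregranulosa, and at P1, with 8.47 in pregranulosa against 7.29 in stroma. These ranks were not tested.

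Germ cells held 0.229 to 1.08 CPM of Bmp4 from E12.5 on, near the 0 to 0.739 CPM of erythroid cells. Bmp4 was lower in germ cells than in the other classes (log2 fold -3.88 ± 0.52, adjusted p = 1.7e-07). It was higher in stroma (1.26 ± 0.33, adjusted p = 0.0030) and in endothelium (1.10 ± 0.40, adjusted p = 0.029). The endothelial call was lost without E16.5 (log2 fold 0.79, adjusted p = 0.18) and without E14.5 (1.04, adjusted p = 0.074). The log2 fold in epithelium was 1.10 ± 0.40 at an adjusted p of 0.061.

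Bmp7 was low throughout, and its highest class was pregranulosa in 4 libraries and epithelium in 3. The gene is on chromosome 2, 172868012 to 172940321 on the minus strand (ENSMUSG00000008999). Its level in pregranulosa was 16.3, 14.9, 12.3, 9.04, 9.80, 11.9 and 7.14 CPM from E11.5 to P5, and in epithelium it ranged from 6.6 to 14.7 CPM. Stroma ranged from 0.675 to 12.96 CPM, and germ cells from 0.896 to 12.8 CPM from E12.5 on. In endothelium it did not exceed 2.24 CPM and rested on 0 to 3 UMIs per library. Bmp7 was higher in pregranulosa (log2 fold 1.44 ± 0.32, adjusted p = 0.00062) and in epithelium (1.19 ± 0.39, adjusted p = 0.039) and lower in endothelium (-2.76 ± 0.57, adjusted p = 0.00031). The epithelial call rests on small numbers of UMIs, 4 to 85 per library, and was lost when any of 5 libraries was left out. E11.5 and E12.5 were the libraries that could be left out, and adjusted p was 0.053 to 0.14 without any of the others. In germ cells the log2 fold of Bmp7 was 0.61 ± 0.38 (adjusted p = 0.16), and without E16.5 it was called (1.01, adjusted p = 0.018).

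**Figure D1:**
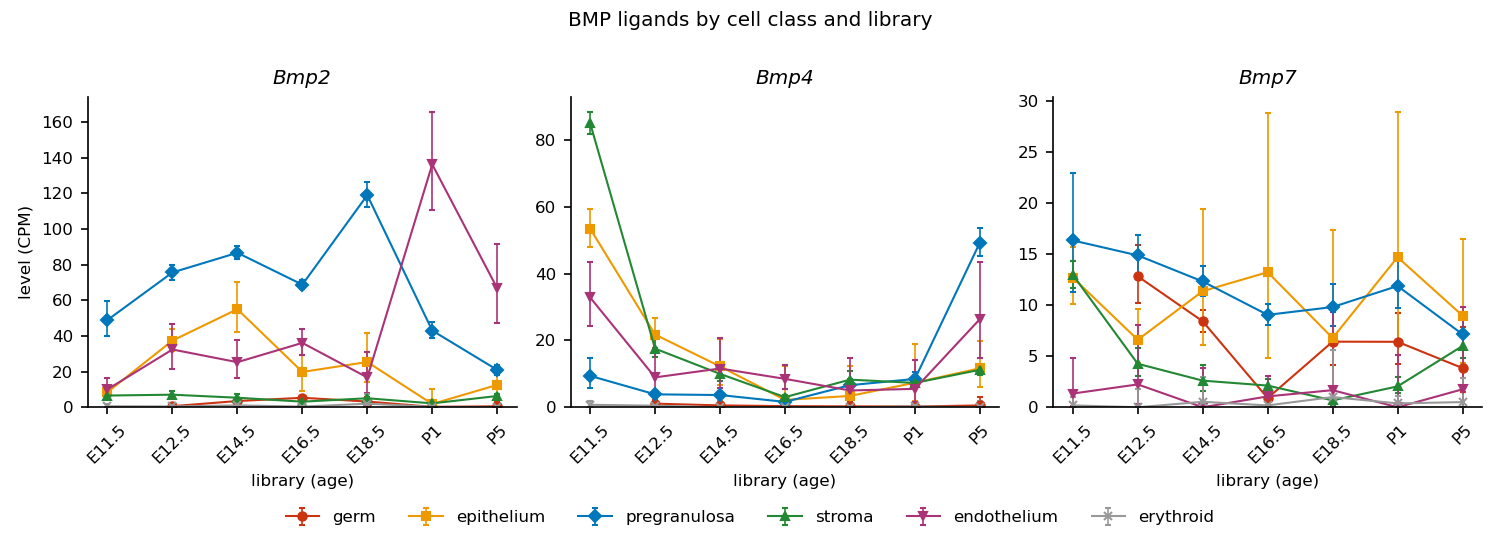
Levels in CPM (y axis, linear, from 0) of Bmp2, Bmp4 and Bmp7 in each library (x axis, in the order of age) for the 5 classes and erythroid cells. Points are 1 library each and bars are 95% exact Poisson intervals; Bmp2 is highest in pregranulosa up to E18.5, and Bmp4 is high in stroma at E11.5 (85.0 CPM) and in pregranulosa at P5 (49.3 CPM).

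How much of a ligand comes from a class depends on the number of its cells as well as on the level. Of all Bmp2 UMIs in a library, pregranulosa held 14.8, 58.6, 63.4, 58.9, 72.9, 51.2 and 40.4% from E11.5 to P5. Endothelium held 13.3% at P1 and 6.62% at P5, from 53 and 47 cells. Stroma, at a low level but with 2494 cells, held 28.0% at E11.5. Of the Bmp4 UMIs, stroma held 51.6% at E11.5 and 12.51% at P5, and pregranulosa 0.406% at E11.5 and 40.1% at P5. Between 4.63 and 38.9% of Bmp2 UMIs and between 8.86 and 36.6% of Bmp4 UMIs were in cells of no class.

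The shares of cells with a UMI were read at equal depth. With every cell thinned to 2000 UMIs, Bmp2 was found in 19.1% (95% exact binomial interval 16.9 to 21.5) of 1183 pregranulosa cells at E18.5 and in 0.935% of 107 erythroid cells. Without thinning the shares were 41.3% of 1198 and 1.75% of 114 cells, at median depths of 7280 and 6205 UMIs. At P1, Bmp2 was found in 15.2% (6.34 to 28.9) of 46 endothelial cells, and in 41.5% of 53 without thinning. Bmp4 was found in 14.0% (12.7 to 15.5) of 2461 stromal cells at E11.5, where 0.408% of erythroid cells held it, and in 8.98% (7.41 to 10.7) of 1192 pregranulosa cells at P5, where 0 of 221 erythroid cells did. Without thinning these were 43.1 and 26.7%. Of the 283 thinned germ cells at E18.5, 0 held a Bmp4 UMI, which allows up to 1.06% of cells with a UMI at that depth, and without thinning 1 of 289 held one.

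Within pregranulosa, the ligands parted between the sides of the class. The study describes a bipotential pathway marked before birth by higher Foxl2 and an epithelial pathway marked by Gng13 and Lgr5. It reports Foxl2 as nearly equal between the pathways at P1 and P5. It also reports Gng13 in the bipotential pathway at E14.5, at a lower level. For its bipotential cluster at E14.5 the study names Bmp2 and Id1 among the expressed genes. It counts Wnt6 and Kitl, which set the class here, as bipotential genes, much lower in the epithelial pathway at E12.5. The sides used here therefore need not match the pathways at any age, P1 and P5 included. Cells with a Foxl2 UMI and no Gng13 or Lgr5 UMI are called Foxl2-side here, and cells with a Gng13 or Lgr5 UMI and no Foxl2 UMI Gng13-side. From E12.5 to P5 the Foxl2-side held 162, 278, 1034, 231, 462 and 763 cells and the Gng13-side 507, 2171, 514, 494, 163 and 60. On the Gng13-side, Bmp2 was at 82.9, 105, 162, 181, 86.9 and 43.3 CPM from E12.5 to P5. On the Foxl2-side, it was at 47.3, 21.7, 12.8, 34.8, 23.2 and 18.9 CPM in the same order. The Gng13-side was higher in 6 of 6 libraries, by 1.75-fold (1.40 to 2.22) at E12.5 up to 12.6-fold (10.7 to 15.0) at E16.5.

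Bmp4 showed the opposite order. On the Foxl2-side it was at 4.30, 10.0, 3.77, 8.55, 12.6 and 56.5 CPM from E12.5 to P5. On the Gng13-side it was at 2.77, 1.73, 0.147, 1.65, 2.27 and 8.24 CPM, from 1 to 25 UMIs per library. The Foxl2-side was higher in 6 of 6 libraries, although at E12.5 the interval of the ratio, 0.588 to 3.72, includes equal levels. Bmp7 followed Bmp2, at 12.4 to 17.4 CPM on the Gng13-side and 4.75 to 8.75 on the Foxl2-side. At E14.5 and P5 the interval of the Bmp7 ratio, from 0.965 and 0.893 upward, includes equal levels.

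In the paired edgeR fit of Foxl2-side against Gng13-side, Bmp2 fell by 2.18 on the log2 scale (SE 0.32, adjusted p = 0.0015), Bmp7 fell by 1.25 (SE 0.18, adjusted p = 0.0013) and Bmp4 rose by 2.26 (SE 0.34, adjusted p = 0.0017). These 3 of the 10 genes passed the rule, where 6.32% of the 12948 genes tested did. Without E16.5, and without cells with a Pax8 UMI, the count was also 3. Thinning to 2000 UMIs lost Bmp7 (log2 fold -0.86, adjusted p = 0.16). For the receptors and targets the log2 folds lay between -0.41 for Id2 and 0.61 for Smad6, with adjusted p of 0.069 or more. Id3, Smad6 and Id2 had an unadjusted edgeR p under 0.05. By library, Id3 was higher on the Foxl2-side at every age, from 1.06-fold (1.01 to 1.10) at E16.5 to 3.10-fold (2.48 to 3.90) at P1. Id1 was higher on the Foxl2-side at E12.5 (1.80-fold) and P5, and on the Gng13-side from E14.5 to P1 (2.12-fold at E16.5). Of the rest of the pathway, 33 of 50 listed genes were tested, 3 rose and 2 fell on the Foxl2-side. Those that rose were Bmp3 (log2 fold 4.04 ± 0.59, adjusted p = 0.0015), a BMP family member that opposes the others, Msx1 (2.22 ± 0.25, adjusted p = 0.00042), a homeobox target of BMP signals, and the type I receptor Bmpr1b (1.01 ± 0.22, adjusted p = 0.013). Acvrl1, a type I receptor known from endothelium, and Gdf9, an oocyte ligand, were the 2 that fell. Their levels were low: Gdf9 had a mean of 1.62 CPM in pregranulosa, against 0.936 to 2.66 in the other somatic classes. Acvrl1 had a mean of 5.42 CPM in pregranulosa, against 48.6 in endothelium. Bmp3 and Bmpr1b were low as well, at means of 6.04 and 8.71 CPM in pregranulosa. The part of RNA from other cells in these folds was not tested.

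**Figure D2:**
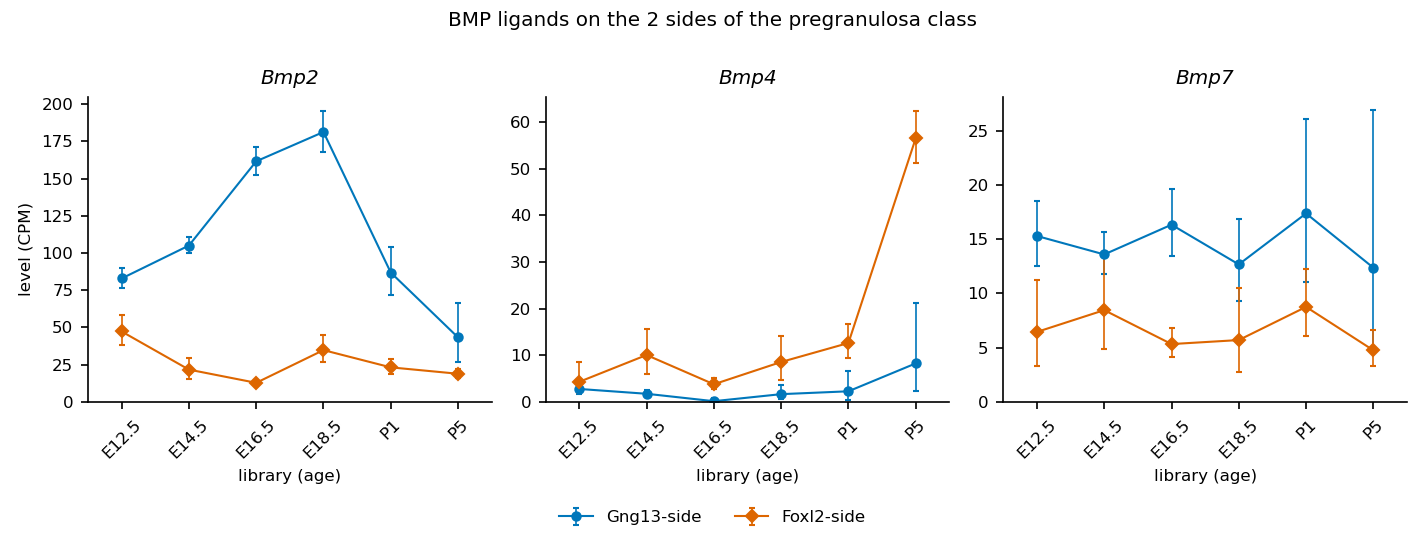
Levels in CPM (y axis, linear, from 0) of the 3 ligands on the Gng13-side and the Foxl2-side of the pregranulosa class, by library from E12.5 to P5 (x axis). Points are 1 library each with 95% exact Poisson intervals; Bmp2 and Bmp7 are higher on the Gng13-side and Bmp4 on the Foxl2-side in all 6 libraries.

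Of the receptors, the type I receptor Bmpr1a was spread over germ cells and the somatic classes but was lowest in endothelium. The gene is on chromosome 14, 34410734 to 34503341 on the minus strand (ENSMUSG00000021796). Its level was 48.1 to 105 CPM in stroma, 41.1 to 84.5 in pregranulosa, 34.9 to 62.4 in epithelium and 19.7 to 60.2 in germ cells from E12.5 on. In endothelium it was at 13.4 CPM at E11.5 and E12.5 and then 3.16, 4.96, 10.0, 11.01 and 12.3 CPM from E14.5 to P5, below every other class in all 7 libraries. Bmpr1a was lower in endothelium (log2 fold -2.52 ± 0.26, adjusted p = 4.1e-09). In stroma, the log2 fold was 0.99 ± 0.18 at an adjusted p of 4.5e-05, just under the fold that the rule asks for, and in pregranulosa 0.76 ± 0.18 (adjusted p = 0.0010). The means of stroma (63.5 ± 20.1 CPM, SD, n = 7) and pregranulosa (59.7 ± 17.4) differed by less than either SD, and that of epithelium was 48.2 ± 9.43.

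The type II receptor Bmpr2 was highest in endothelium and lowest in germ cells and epithelium. It lies on chromosome 1, 59763400 to 59879014 on the plus strand (ENSMUSG00000067336). The endothelial level was 36.2, 52.6, 72.7, 264 (245 to 284), 58.6, 89.5 and 77.4 CPM from E11.5 to P5, the highest class in 6 of 7 libraries. In germ cells it was at 5.56, 12.47, 79.5, 25.4, 35.7 and 18.6 CPM from E12.5 to P5. Bmpr2 was higher in endothelium (log2 fold 1.11 ± 0.16, adjusted p = 1.1e-06) and lower in germ cells (-1.18 ± 0.18, adjusted p = 1.8e-06). Without E12.5 the log2 fold in germ cells was -0.9993 (adjusted p = 4.1e-05), just under the fold of the rule. It was also under that fold when cells were thinned to 2000 UMIs (-0.96) and without the library block (-0.91). In endothelium the log2 fold of Bmpr2 was under it with no filter on low counts (0.96) and with cells of several classes kept (0.69).

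In every class, Bmpr2 was highest at E16.5. Pregranulosa held 125 CPM at E16.5 and at most 66.3 in the other libraries, stroma 136 and at most 50.7, and epithelium 61.7 and at most 39.5. The excess of E16.5 over the next library was 1.56-fold in epithelium to 2.95-fold in endothelium. This was not particular to Bmpr2: of 9372 genes with at least 20 CPM in at least 3 library and class sums, 7.97% were highest at E16.5 in all 5 classes, against at most 0.469% for any other library. Bmpr2 was the 1 member among them, and the comparison was added after its values had been seen. The part of the library in these levels was not tested. Without E16.5, Bmpr2 was still called in both classes.

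Smad6, the inhibitory Smad that BMP signals induce, was low everywhere. Its position is chromosome 9, 63953076 to 64022059 on the minus strand (ENSMUSG00000036867). In stroma it was at 24.1, 8.20, 13.3, 12.7, 12.48, 6.56 and 4.81 CPM from E11.5 to P5. In germ cells, Smad6 was at 7.56, 20.1, 2.85, 10.2, 2.06 and 1.10 CPM from E12.5 to P5. The means of the 5 classes lay between 6.42 CPM (SD 2.57) in pregranulosa and 11.7 CPM (SD 6.37) in stroma, and no contrast of a class called Smad6.

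**Figure D3:**
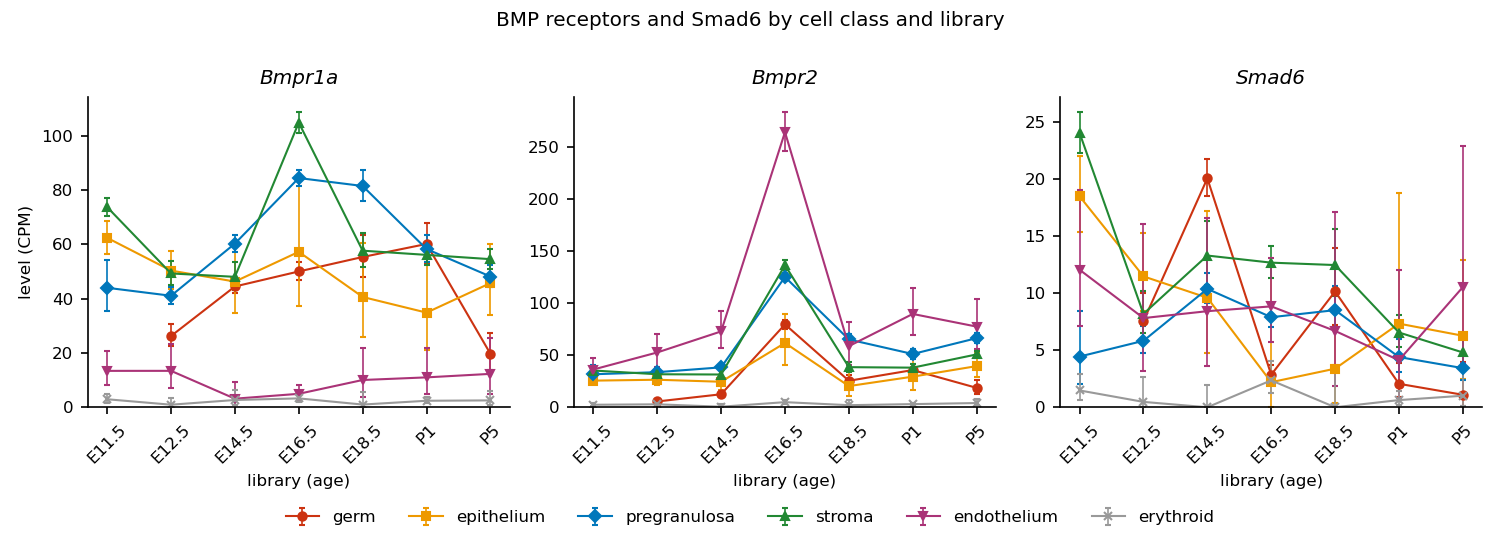
Levels in CPM (y axis, linear, from 0) of Bmpr1a, Bmpr2 and Smad6 in each library (x axis, in the order of age) for the 5 classes and erythroid cells, with 95% exact Poisson intervals. Bmpr1a is lowest in endothelium of the 5 classes in every library, and Bmpr2 peaks at E16.5 in all 5 classes (264 CPM in endothelium).

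Of the targets, Id1 was highest in different classes at different ages. Its gene is on chromosome 2, 152736251 to 152737410 on the plus strand (ENSMUSG00000042745). In germ cells, Id1 was at 45.8 CPM (21.9 to 84.1) at E11.5 and then 103, 278, 363, 1528, 637 and 78.3 CPM from E12.5 to P5. In pregranulosa it was at 122, 541, 375, 397, 283, 43.4 and 67.2 CPM from E11.5 to P5. In stroma it went from 452 CPM at E12.5 to 36.4 at P5. Id1 in pregranulosa and stroma was thus highest at E12.5, while germ cell Id1 was highest at E18.5 and P1, when it exceeded every other class.

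Germ cells held 42.0% of all Id1 UMIs at E18.5 and 45.9% at P1, from 289 and 176 cells. With cells thinned to 2000 UMIs, 82.0% (77 to 86.3) of 283 germ cells at E18.5 held an Id1 UMI, against 35.4% of pregranulosa and 5.61% of erythroid cells. Without thinning the shares were 94.5, 64.3 and 16.7%. Over all libraries, Id1 was higher in germ cells than in the other classes (log2 fold 1.24 ± 0.40, adjusted p = 0.0082). The call rests on E18.5 and P1: without E18.5 the log2 fold was 0.81 (adjusted p = 0.13) and without P1 0.77 (adjusted p = 0.099). The log2 folds in the other 4 classes lay between -0.54 and -0.05, with adjusted p of 0.38 or more.

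Id2 was the most stromal of the Id genes by its contrast. It lies on chromosome 12, 25093799 to 25097140 on the minus strand (ENSMUSG00000020644). The stromal level was 746, 517, 1158, 551, 1574, 869 and 706 CPM from E11.5 to P5, above every other class in 7 of 7 libraries. In pregranulosa it was at 232, 199, 720, 153, 503, 123 and 34.3 CPM from E11.5 to P5. Stroma, pregranulosa and germ cells each held more Id2 at E14.5 than at E12.5. Each held less at E16.5 than at E14.5, with 551, 153 and 37.3 CPM at E16.5. The part of the library in these steps was not tested. Stroma held 18.7 to 81.4% of the Id2 UMIs of a library.

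Id3 and Id4 were also highest in stroma. Id3 lies on chromosome 4, 136143497 to 136145755 on the plus strand (ENSMUSG00000007872), and its stromal level was 684, 1176, 999, 802, 1056, 669 and 331 CPM from E11.5 to P5. In endothelium, Id3 was at 427, 397, 381, 553, 419, 549 and 835 (762 to 914) CPM from E11.5 to P5, and at P5 it passed stroma. Id4 lies on chromosome 13, 48261228 to 48266026 on the plus strand (ENSMUSG00000021379), and was at 33.0 to 119 CPM in stroma and 1.76 to 20.1 in endothelium. Stroma was the highest class for Id3 in 6 libraries and for Id4 in 5, and epithelium was the highest for Id4 at E12.5 (70.9 CPM) and E16.5 (41.9). The rank at E16.5 was close, with 39.4 CPM in stroma, rests on 83 shallow epithelial cells and was not tested.

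In the contrast of stroma, Id2 had a log2 fold of 2.40 ± 0.28 (adjusted p = 3.4e-08), Id4 of 1.74 ± 0.25 (adjusted p = 1.3e-06) and Id3 of 1.12 ± 0.28 (adjusted p = 0.0021). In endothelium, Id4 was lower (log2 fold -2.29 ± 0.37, adjusted p = 1.2e-05) and Id2 was lower (-1.10 ± 0.34, adjusted p = 0.011, and -0.9995 without E12.5, just under the fold of the rule), while the log2 fold of Id3 was 0.55 ± 0.31 (adjusted p = 0.17). Germ cells had log2 folds of -0.93 for Id2 and -0.91 for Id3, each at an adjusted p of 0.025 and under the fold of the rule. Across the 34 sums of the fit, the log2 levels of Id2 and Id4 had a Pearson r of 0.73, Id2 and Id3 of 0.68, Id1 and Id3 of 0.48, and Id1 and Id2 of 0.28. These are descriptions, since sums of a library share their depth and cells.

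**Figure D4:**
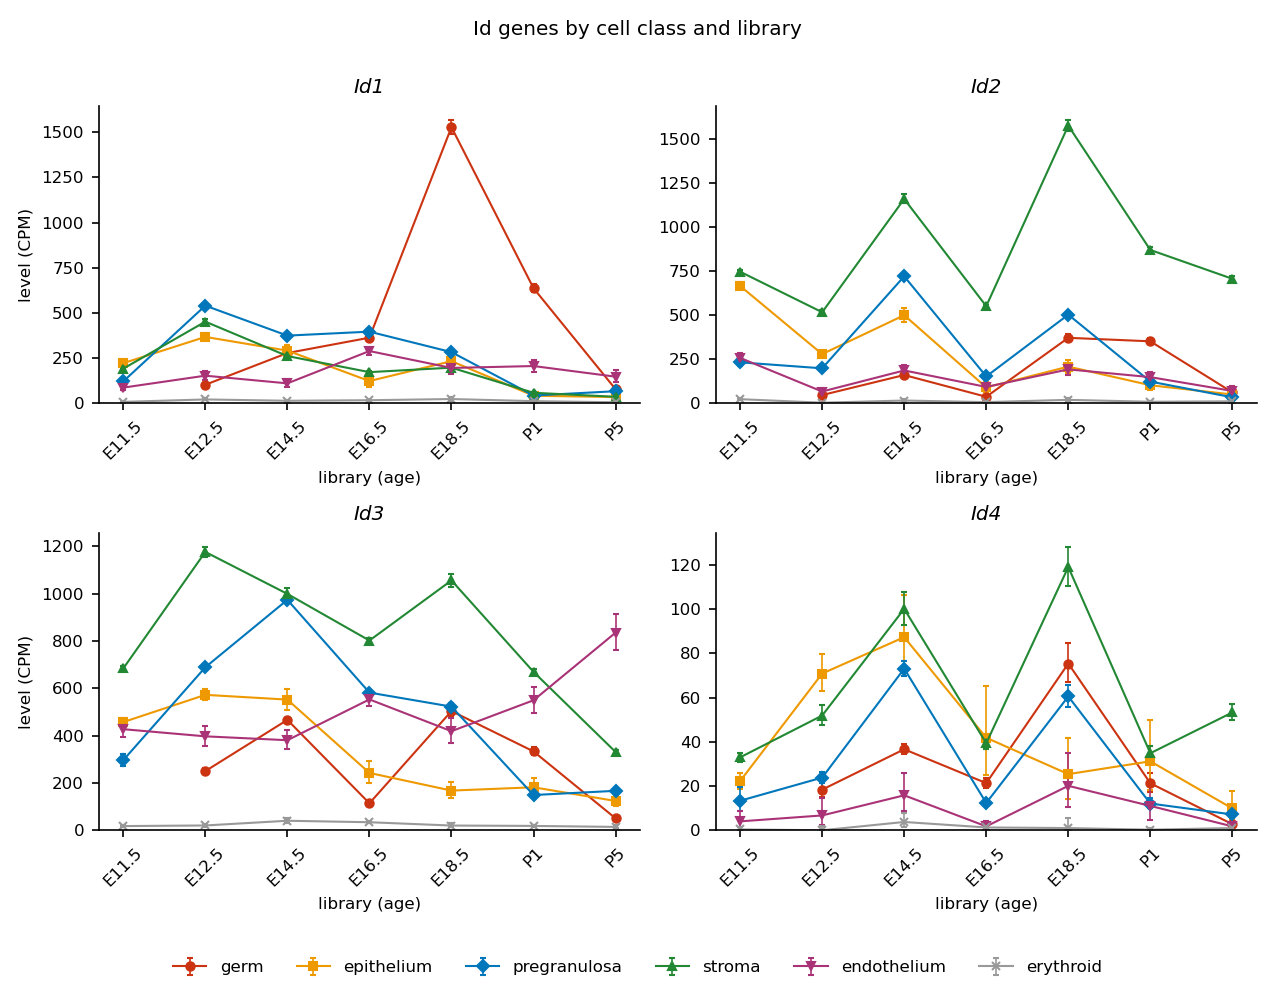
Levels in CPM (y axis, linear, from 0) of Id1, Id2, Id3 and Id4 in each library (x axis, in the order of age) for the 5 classes and erythroid cells, with 95% exact Poisson intervals. Id1 in germ cells reaches 1528 CPM at E18.5, and Id2 is highest in stroma in all 7 libraries.

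The promoters of the 3 Id genes that were called higher in stroma are shown, from 250 bases before to 50 bases after the RefSeq start on GRCm38.p6, in the direction of the gene. RefSeq windows of this kind were at hand for 7 of the 10 genes. Capitals mark GGCGCC, a GC-rich element that Smad1 and Smad4 are known to bind. It reads the same on both strands, and no other motif was searched. It was found in 4 of the 7 windows, those of Id2, Id4, Bmpr1a and Bmpr2, each with 1 match, and in 11.9% of all 32851 windows. The 7 windows were richer in G and C, at 59.3 to 79.3%, than the median of 52.7% over all windows, so the shares are not a comparison of like windows. The windows of Id3, Smad6 and Bmp4 held none. A match is a description of the sequence, not a site of binding.
Id2, chr12:25096043-25096342, minus strand: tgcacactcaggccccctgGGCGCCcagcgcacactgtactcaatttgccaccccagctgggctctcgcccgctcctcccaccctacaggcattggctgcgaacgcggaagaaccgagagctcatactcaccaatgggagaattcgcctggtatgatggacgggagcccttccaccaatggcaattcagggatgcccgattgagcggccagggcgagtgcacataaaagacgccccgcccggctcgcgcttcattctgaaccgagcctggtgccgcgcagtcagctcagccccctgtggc
Id3, chr4:136143572-136143871, plus strand: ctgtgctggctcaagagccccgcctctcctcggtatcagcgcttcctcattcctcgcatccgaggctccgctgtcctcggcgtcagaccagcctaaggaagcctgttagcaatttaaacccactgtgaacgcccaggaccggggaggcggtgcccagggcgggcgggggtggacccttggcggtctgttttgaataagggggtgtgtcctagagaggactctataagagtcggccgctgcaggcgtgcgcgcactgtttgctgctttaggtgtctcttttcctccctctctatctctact
Id4, chr13:48260866-48261165, plus strand: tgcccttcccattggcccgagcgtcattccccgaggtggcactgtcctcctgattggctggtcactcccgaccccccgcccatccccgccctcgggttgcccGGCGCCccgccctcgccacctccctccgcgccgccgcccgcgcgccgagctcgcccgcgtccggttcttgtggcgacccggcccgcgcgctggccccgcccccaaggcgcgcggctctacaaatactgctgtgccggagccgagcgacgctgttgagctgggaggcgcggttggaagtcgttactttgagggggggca

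Read by class, the members' contrasts fell as follows. In germ cells 4 of the 10 genes passed the rule, Id1 higher and Bmp2, Bmp4 and Bmpr2 lower, where 48.7% of the 16336 genes tested did. In stroma 5 passed, Bmp4, Id2, Id3 and Id4 higher and Bmp2 lower, against 22.6% of genes. In endothelium 7 passed, Bmp2, Bmp4 and Bmpr2 higher and Bmp7, Bmpr1a, Id2 and Id4 lower, against 23.0%. Germ cells, which held little Bmp4, are part of the mean that stroma and endothelium were compared with. In pregranulosa 2 passed, Bmp2 and Bmp7, both higher, against 24.6%, and in epithelium 1, Bmp7, higher, against 8.76%. The share of members was thus above the background in stroma and endothelium and near or below it in the other classes, with 10 genes only. Between pregranulosa and epithelium 0 of 10 passed in edgeR, 3 at an unadjusted p under 0.05 and 1 in DESeq2, where 12.0% of genes passed.

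**Figure D5:**
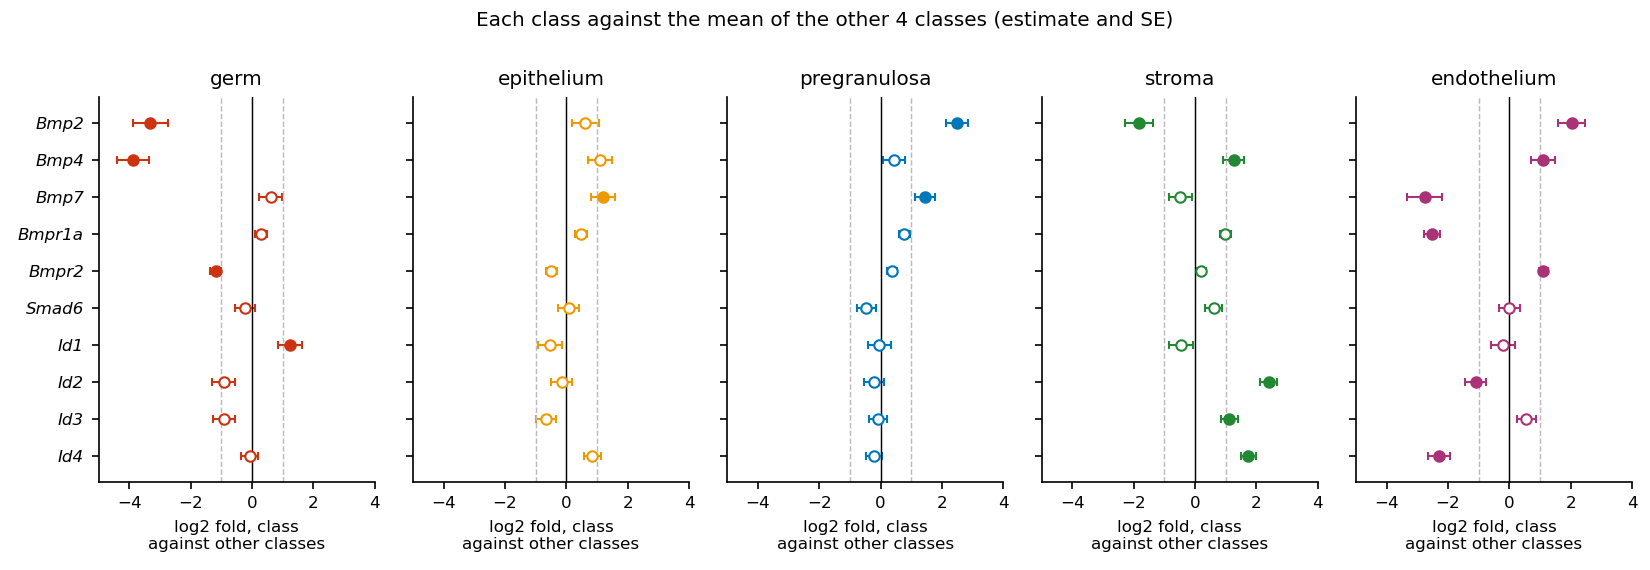
Log2 fold (x axis) of each of the 10 genes (y axis) in each class against the mean of the other 4 classes, with the standard error; filled points were called and open points were not. Dashed lines mark a log2 fold of 1 in either direction; Bmp2 lies to the right in pregranulosa and endothelium, and Id2, Id3 and Id4 lie to the right in stroma.

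The other genes of the pathway were read from a list of 50 ligands, receptors, Smads, inhibitors, targets and E proteins, of which 45 were tested. In stroma 20 were higher and 4 lower, where 22.6% of all genes were called, with a median log2 fold of 0.94 over the 45 where the median of all genes was 0.016. The largest folds in stroma included Nbl1, a secreted BMP antagonist (92.1 ± 49.1 CPM, SD, n = 7, against 11.2 to 45.5 in the other somatic classes), and the ligand Bmp5 (5.29 ± 6.85 CPM). In endothelium 9 were higher and 9 lower, where 23.0% of all genes were called. Eng, a co-receptor of endothelium, was at 242 ± 97.8 CPM there (log2 fold 6.09 ± 0.35, adjusted p = 6.8e-15), and Acvrl1 at 48.6 ± 18.4 CPM (4.03 ± 0.25, adjusted p = 4.4e-14). Gdf6 had 0 UMIs in endothelium in all 7 libraries.

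In germ cells 6 listed genes were higher and 20 lower, where 48.7% of all genes were called, with a median log2 fold of -1.22 against 0.046 for all genes. Stra8, a gene of meiotic entry, was at 1267 CPM in germ cells at E14.5 and 0 to 45.3 CPM in the other libraries. In the other 4 classes at E14.5 it was at 11.6 to 23.6 CPM. Zglp1, a BMP target in germ cells, was at 0.112 to 6.69 CPM in germ cells from E12.5 on. The antagonists Fstl1 and Nbl1 and the receptor Acvrl1 were among the lower, at mean levels of 8.17, 1.73 and 0.461 CPM.

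In pregranulosa 9 were higher and 5 lower, where 24.6% of all genes were called. The highest fold was that of Fst, the activin and BMP antagonist follistatin (638 ± 301 CPM, log2 fold 4.91 ± 0.38, adjusted p = 1.3e-11), a gene that also served as a marker of the class. Bmp3 and Msx1 were higher as well, with log2 folds of 3.52 ± 0.48 and 2.75 ± 0.36. In epithelium 3 were higher, Gdf6, Bmpr1b and Nbl1, and 2 lower, Eng and Smurf1, where 8.76% of all genes were called. Against epithelium, pregranulosa had 5 genes higher, with Fst first (log2 fold 3.42 ± 0.58), and 3 lower, with Gata2 first (-3.80 ± 0.75), where 12.0% of all genes were called.

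Trends with age were fitted as a slope over the order of the 7 ages, called at a slope of at least 0.2 per step on the log2 scale and an adjusted p under 0.05. Bmp2 rose in endothelium (0.50 ± 0.13 per step, adjusted p = 0.037), 1 of the 7 members tested there, where 4.80% of genes were called. In epithelium 2 of 10 were called, Id2 (-0.53 ± 0.12, adjusted p = 0.033) and Id3 (-0.37 ± 0.08, adjusted p = 0.039), against 3.24% of genes. These 3 calls were not stable: the endothelial call of Bmp2 was lost without E11.5, E12.5, E14.5, P1 or P5, that of Id2 without E11.5, E12.5, P1 or P5, and that of Id3 without any of these 4 or E14.5. Adjusted p then lay between 0.051 and 0.27. The numbers of genes called were not stable either: leaving out a library took the 304 of the epithelial trend to between 26 (without E11.5) and 458, and the 406 of the endothelial trend to between 79 and 779. P1 and P5, where the endothelium held the markers of other cell types given above, are among the libraries on which the slope of Bmp2 rests.

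No member was called for a trend in germ cells (0 of 9, against 4.26% of genes; 1 at an unadjusted p under 0.05 and 0 in DESeq2), in pregranulosa (0 of 10, against 3.99%; 1 and 1) or in stroma (0 of 10, against 7.32%; 3 and 2). The stromal slopes nearest to a call were those of Id1 (-0.48 ± 0.13, adjusted p = 0.052) and Bmp4 (-0.44 ± 0.14, adjusted p = 0.097), and without E16.5 that of Bmp4 was called (-0.44, adjusted p = 0.046). Of the listed pathway genes, Msx1 fell in pregranulosa (-0.44 ± 0.07, adjusted p = 0.011) and Bmp3 rose there (1.17 ± 0.22, adjusted p = 0.018). In stroma 3 rose and 5 fell, with Msx2 (-1.05 ± 0.23) and Msx1 (-0.75 ± 0.17) falling and Bmp6 rising (0.70 ± 0.09). In germ cells Gdf9, the oocyte ligand, rose (2.68 ± 0.25, adjusted p = 0.0048), as did the receptor Bmpr1b (1.52 ± 0.27, adjusted p = 0.024), while Gata2 and Rgma fell. The stability of these slopes of pathway genes was not tested. Leaving out a library took the 515 genes called in germ cells to between 27 and 954. The 559 in pregranulosa went to between 167 and 652, and the 999 in stroma to between 192 and 1325.

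Whether a class changed with age differently from the other classes was tested in 1 fit over all sums, added after the trends had been seen. In germ cells 3 of 10 were called, where 20.2% of genes were. The slope of Id1 in germ cells exceeded the mean slope of the other classes by 0.65 ± 0.22 per step (adjusted p = 0.031), that of Id2 by 0.41 ± 0.14 (adjusted p = 0.037), and that of Smad6 fell short of it (-0.54 ± 0.19, adjusted p = 0.038). Without P1 or without E14.5 none of the 3 was called, and the difference of Id1 was then 0.45 (adjusted p = 0.23) and 0.73 (adjusted p = 0.073). Without E12.5 only that of Smad6 was called, and the difference of Id1 was 0.33 (adjusted p = 0.47). That of Smad6 was also lost without P5 (-0.39, adjusted p = 0.26). With DESeq2 size factors 50.3% of the called genes rose, in place of 39.3%.

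In pregranulosa 1 of 10 was called, Bmp4, whose slope exceeded that of the other classes by 0.75 ± 0.10 per step (adjusted p = 0.00015), where 2.03% of genes were called. It was called without each library in turn, P5 included, and was lost only when cells were thinned to 2000 UMIs (0.77, adjusted p = 0.10). Of the called genes 48.6% rose, and 37.8% with DESeq2 size factors. In epithelium 1 of 10 was called, Id2 (-0.49 ± 0.11, adjusted p = 0.015), against 2.10% of genes. The call was lost without E11.5, E12.5 or P1, at adjusted p of 0.062 to 0.096. In stroma 0 of 10 were called (2.21% of genes; 3 at an unadjusted p under 0.05 and 0 in DESeq2), and in endothelium 0 of 10 (1.17%; 3 and 1), where Bmp2 and Id3 had differences of 0.68 ± 0.20 and 0.42 ± 0.12 at adjusted p of 0.085 and 0.086.

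The genes whose levels were most like a member's were sought by Pearson r of log2(CPM + 10) over the 34 sums, among the 9372 genes described above. Apart from Kitl, whose class pattern was set by the definition of pregranulosa, Bmp2 was most like Dock4 (0.82) and Lzts1 (0.81). Bmp4 was most like Ilf2, Mid1 and Zfp422 (0.76 to 0.80). Bmpr2 was most like Stard9 (0.90), Xiap and Mef2a. Id1 was most like Mrpl43, Arid1a and Pmpcb (0.66 to 0.69). Id2 was most like Tpbg, Ostc and Tnfaip6 (0.78 to 0.79), and Id3 was most like Smad7 (0.79), the other inhibitory Smad, Ckap4 and Snai2. Id4 was most like Rps26 (0.79) and Id2 (0.73). Bmp7 and Smad6 did not reach 20 CPM in 3 sums.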

How the data were processed

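Gonad cells of 7 ages were captured on the 10x Genomics platform, 1 library per age, with v2 chemistry as the labels and the study state. The deposited matrices hold whole-number UMI counts per gene and cell, which the authors made with Cell Ranger 3.1.0; the groups are the ages in the labels. Cells with at least 200 genes were kept, and classes were set by at least 1 UMI of each gate gene. The 10 genes, the classes and the gene lists were chosen with earlier results of these data known. UMI counts were summed per library and class with at least 20 cells, genes with at least 10 UMIs in at least 3 sums were kept, and edgeR 4.0.16 (R 4.3.3, TMM, quasi-likelihood test) was fitted over all genes with library as a block. Calls needed a Benjamini-Hochberg adjusted p under 0.05 and a log2 fold of 1, or a slope of 0.2 per age step. The spread is that between libraries of different ages, so it holds age as well. No doublets were removed in the main analysis; leaving out the 5% highest Scrublet scores (scanpy 1.11.5) was an alternative, as were DESeq2 1.42.0, its size factors, no filter, stricter gates and cells, thinning to 2000 UMIs, no block and leaving out each library. Pathway genes named in the text are those called with the largest folds, at most 5 per comparison. A gene that set the erythroid cells and some genes with similar levels, those for Bmpr1a included, are not reported here. The scripts were tested on simulated data.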

Additional observations from a re-analysis of the deposited data

Results flagged for a closer look

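Of 50 series of levels, 1 per gene and class, 7 had a library that stood apart from the rest. The chance rate of this rule, about 1 in 20, assumes replicates with a normal spread. The libraries are of 7 ages, so the 7 flags cannot be set against that rate. Bmp4 stood out at E11.5 in stroma (85.0 CPM) and epithelium (53.5 CPM) and at P5 in pregranulosa (49.3 CPM). Bmpr2 stood out at E16.5 in pregranulosa (125 CPM), stroma (136 CPM) and endothelium (264 CPM), in the library whose cell barcodes are nearly absent from the others. Id3 stood out at P5 in endothelium (835 CPM). The part of the library in these levels was not tested.

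In 5 cases the change with age in a class differed from that in the other classes by the edgeR test of the difference itself, which was chosen after seeing the data. The differences in slope per age step were 0.65 for Id1, 0.41 for Id2 and -0.54 for Smad6 in germ cells, -0.49 for Id2 in epithelium and 0.75 for Bmp4 in pregranulosa. Leaving out single libraries lost each of these calls except that of Bmp4.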

How the results depend on the processing

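No gene called among the 10 changed direction under any alternative tried, and 71 of their values lost a call while 59 gained one. The ligand calls between the sides of pregranulosa numbered 3, and 2 when thinned to 2000 UMIs. The fit without the library block, which drops the pairing of classes within a library, called 2 between the sides (Bmp4 at a log2 fold of 3.02, adjusted p = 0.073), 5 in endothelium, 3 in germ cells, and 0 in epithelium in place of 1. The other counts of called genes that moved by over 1.5 times were as follows. In epithelium the 1 call became 2 with DESeq2, with its size factors, with the adjusted p alone and with gates of 2 UMIs. It became 0 with no filter, with cells of several classes kept, with cells of 1000 genes or more and up to 10% mitochondrial UMIs, without the 5% highest Scrublet scores and when thinned. In pregranulosa 2 became 4 with the adjusted p alone and 1 with cells of several classes kept, which also took endothelium from 7 to 4. Between pregranulosa and epithelium 0 became 1 with DESeq2, the adjusted p alone, no filter, without the Scrublet cells and without Pax8 cells. Of the trends, epithelium went from 2 to 4 with gates of 2 UMIs and to 0 with the stricter cells or thinning. Endothelium went from 1 to 0 with cells of several classes kept, and the thinned fit called 0. Pregranulosa went from 0 to 1 with DESeq2. Stroma went from 0 to 2 with DESeq2 and to 1 with gates of 2 UMIs, cells of several classes kept, no filter or thinning. Of the differences between classes, germ cells went from 3 to 1 with the stricter cells, pregranulosa from 1 to 0 when thinned, and endothelium from 0 to 1 with DESeq2 and to 2 with gates of 2 UMIs or cells of several classes kept. Leaving out each library in turn gave 0 to 1 calls for the trend in endothelium, 0 to 3 in epithelium and 0 to 1 in stroma. For the differences between classes it gave 0 to 2 in epithelium and 0 to 3 in germ cells, and 0 to 1 for epithelium and for pregranulosa against epithelium. Counts over all genes moved with these settings as well. With all libraries kept they ranged from 876 to 2309 in epithelium (1431 in the main fit) and from 2893 to 6826 in pregranulosa (4015). In endothelium they ranged from 1790, with cells of several classes kept, to 6118 (3764). The shifts among the 10 genes are to be read beside these. The cause of these changes was not tested.

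Over all genes, DESeq2 moved the median log2 fold by -0.10 in pregranulosa, 0.16 in endothelium and -0.13 between pregranulosa and epithelium. The share of calls that were higher went from 62.8 to 51.6% in stroma with DESeq2. For the differences in change with age it went from 39.3 to 50.3% in germ cells and from 48.6 to 37.8% in pregranulosa with DESeq2 size factors. Counts of called genes over all settings ranged from 246 to 1821 between the sides (818 in the main fit), from 27 to 1433 for the trend in germ cells (515) and from 964 to 4486 for the change with age in germ cells (3303). With 1 library per age, and with 39 to 184 endothelial cells per library, small changes with age could not be told from the spread between libraries. Endothelial Bmp7 rests on 0 to 3 UMIs.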
